A study of Mus musculus with 2 samples.

Results

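The RNA called 7SK, encoded by Rn7sk, and 8 genes for the proteins that it binds or that act with them were followed in the nucleoplasm of mouse macrophages. The 9 genes, chosen by symbol, were Rn7sk, Mepce, Larp7, Hexim1, Hexim2, Cdk9, Ccnt1, Ccnt2 and Aff4, of 55536 genes in the tables. The macrophages had been grown from bone marrow of the inbred strain C57BL/6J. Lipid A, the moiety of lipopolysaccharide sensed through Toll-like receptor 4, had been given at 100 ng/ml for 12 h and taken away for 12 h. A further 30 min at 100 ng/ml preceded the isolation of nucleoplasmic RNA. Both libraries, biological replicates 1 and 2, were of this 1 group, so that no treated cells could be set against untreated ones and no p-value was given. Ribosomal RNA was depleted, and the RNA put into library making was 1 µg for replicate 1 but 500 ng for replicate 2, at a stated size range of 250 to 400. The labels give both libraries the same donor identifier and do not tell whether the cultures were separate, so that the spread between them may be technical.

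7SK is a short RNA made by RNA polymerase III. MEPCE caps its 5′ end and stays bound, LARP7 holds its 3′ end, and HEXIM1 or HEXIM2, once bound to the RNA, takes up and inhibits P-TEFb, the kinase made of CDK9 and a cyclin T. P-TEFb that leaves 7SK phosphorylates pausing factors and the tail of RNA polymerase II, which lets paused polymerase move into the gene, and AFF4 is a scaffold that joins P-TEFb to other elongation factors in the super elongation complex. In macrophages, release of paused polymerase by P-TEFb is a known step in the fast induction of inflammatory genes.

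Replicate 1 had 23846021 gene counts and replicate 2 had 20675305, so that a count of 0 allows up to 0.126 and 0.145 CPM. Mitochondrial mRNA made up 2.81% of replicate 1 and 6.85% of replicate 2 by counts. All 8 macrophage marker genes examined reached 1 TPM (transcripts per 1e6 of all transcripts, a level per effective length) in both libraries, with summed levels of 2650 and 4279 TPM. The T cell markers were at 0 counts in both libraries, and no B cell, neutrophil or fibroblast marker reached 1 TPM in both. Of 3 endothelial and 3 erythroid markers, 1 each did, with list sums of 10.6 and 7.81 TPM and of 2.01 and 3.28 TPM in replicates 1 and 2, and their part in the levels below was not tested. In RNA from many cells, fewer cells of a type and less RNA per cell cannot be told apart.

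Each library came with a gene and a transcript table made from alignments to the transcriptome (alignment-based) and a transcript table made from the reads (read-based). TPM and counts below are from the alignment-based tables unless said otherwise, as mean ± SD (n = 2) where an SD is given. Each of the 9 genes reached 1 TPM in both libraries. Of all protein-coding genes, 41.9% did so, namely 9220 of 22028, with a median of 7.63 TPM and quartiles of 3.63 and 17.8 TPM. The 9 genes were chosen with earlier results of these data known, so that all passed is not independent of them. Rn7sk lay far above its protein partners, and the 8 protein-coding genes spanned 1.82 TPM (Hexim2) to 47.5 TPM (Cdk9).

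Rn7sk held the highest TPM of all genes in the tables. It is a gene of 1 exon and 331 bases at chr9:78175303-78175633 on the minus strand of mm10, the assembly of all positions given here. Its first 100 bases are shown because they hold a short repeated motif through which the inhibitor is known to bind. The sequence, from the GENCODE M21 transcripts, is written 5′ to 3′ in DNA letters, and capitals mark each GATC, the motif that HEXIM proteins are known to recognise as GAUC in the 5′ hairpin.
Rn7sk: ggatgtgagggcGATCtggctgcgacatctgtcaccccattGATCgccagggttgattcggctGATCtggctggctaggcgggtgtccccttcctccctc

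The letters GATC occur 3 times, starting at bases 13, 42 and 64. The marking is by letters only and does not show that HEXIM proteins bind each of them. The RNA ends in 3 T, the stretch where LARP7 binds, shown further on. GATC reads the same on both strands and cannot overlap itself. Of 10949 annotated transcripts of 250 to 400 bases, 66.6% hold GATC at least once and 9.33% hold it 3 times or more, so the letters alone do not set 7SK apart.

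Rn7sk had 1328471 counts in replicate 1 and 986090 in replicate 2. Its share of all gene counts was 5.57% in replicate 1, with a Wilson interval of 5.56% to 5.58% at the 95% level. In replicate 2 it was 4.77%, with an interval of 4.76% to 4.78%, and both intervals cover counting error only. In the read-based table the share of counts was 4.36% and 3.85% in replicates 1 and 2. The share was higher in replicate 1 in both tables.

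Per length, the distance to other genes was wider. The TPM of Rn7sk was 316861 in replicate 1 and 305846 in replicate 2, a mean of 311353 ± 7789. That was 31.7% and 30.6% of all TPM. Both values lay above their deposited credibility bounds, 306963 to 308348 in replicate 1 and 293523 to 295121 in replicate 2. The deposited posterior means, 307675 and 294342, lay within them. The cause was not tested. The read-based table listed 107627 and 137361 TPM, or 10.8% and 13.7% of the total. The tables differed in which replicate was higher, and their levels differed more from each other than either table's did between libraries.

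The TPM of so short an RNA rests on its effective length, the number of start positions a fragment could have had. That was 108 bases in replicate 1 and 116 in replicate 2 in the alignment-based table, and 119 and 155 bases in the read-based one, so the full 331 bases were 3.07 and 2.85 times the effective length in the first and 2.79 and 2.13 times in the second. Recomputed as counts per full length, with the same total over genes as TPM, Rn7sk stood at 258531 in replicate 1 and 232507 in replicate 2, a mean of 245519 ± 18402. Rn7sk remained far above every other gene of the 9 on each of these scales.

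**Figure D1:**
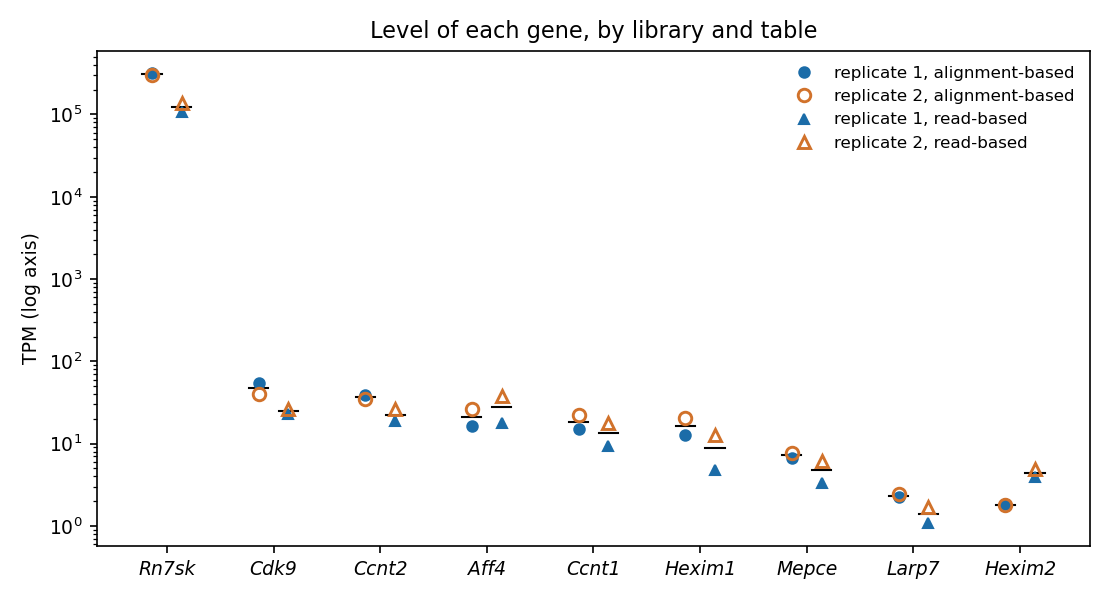
Level of each of the 9 genes in TPM on a log axis, for replicate 1 (filled) and replicate 2 (open), with circles for the alignment-based and triangles for the read-based table and a bar at the mean. Rn7sk lies between 107627 and 316861 TPM, and the highest protein-coding value is 54.5 TPM for Cdk9.

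Many genes in the mouse genome resemble 7SK. A search of the annotated transcripts with the Rn7sk sequence found 206 genes of the annotation class misc_RNA that align over 100 bases or more on the same strand. Only the first listed aligned stretch of each gene was kept, so a further stretch would not be seen. In 196 of them the kept alignment ends by base 250 of Rn7sk, which leaves out the 3′ end. Of the 206, 160 had 0 counts in both libraries, and all 206 together held 316 counts in replicate 1 and 168 in replicate 2, or 0.0238% and 0.0170% of the counts of Rn7sk and its relatives. The read-based table gave them 3909 and 3915 counts, or 0.270% and 0.307%. In both tables nearly all counts of the family stood under Rn7sk itself.

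The 11 relatives with an identity of 90% or more over the aligned bases held 138 and 38.7 counts, and 2574 and 2022 in the read-based table. Gm26035, on chromosome X, had the most in replicate 1, with 101 counts, but 5 in replicate 2, where Gm24146 had the most with 17.8. In the read-based table Gm26035 had 1846 and 958 counts, the most in both libraries. Counts of such genes are uncertain, since reads from the shared stretch do not tell them from Rn7sk. Gm24447 (chr15:93234363-93234700, plus strand) is the extreme case, as its first 241 bases are those of Rn7sk without a difference. It had 0 counts in replicate 1 and 1.33 in replicate 2, and 642 and 131 in the read-based table. The lines below start 20 bases before the point where they part and show which stretch tells them apart, with capitals from base 242, the first that differs, to the 3′ end.
Rn7sk: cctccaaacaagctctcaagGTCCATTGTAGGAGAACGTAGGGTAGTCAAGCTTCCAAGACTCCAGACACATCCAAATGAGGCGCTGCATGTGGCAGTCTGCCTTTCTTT
Gm24447: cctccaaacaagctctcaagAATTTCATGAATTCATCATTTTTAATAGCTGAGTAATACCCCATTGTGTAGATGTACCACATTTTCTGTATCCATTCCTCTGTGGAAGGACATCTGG

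At least 3 GATC are present in 48 of the 206 relatives and in 8 of the 11 closest, Gm24447 and Gm26035 among them. These were counted anywhere in the gene. The 3′ end that binds LARP7 is missing from nearly all of the alignments kept, which does not show that the genes lack it.

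**Figure D2:**
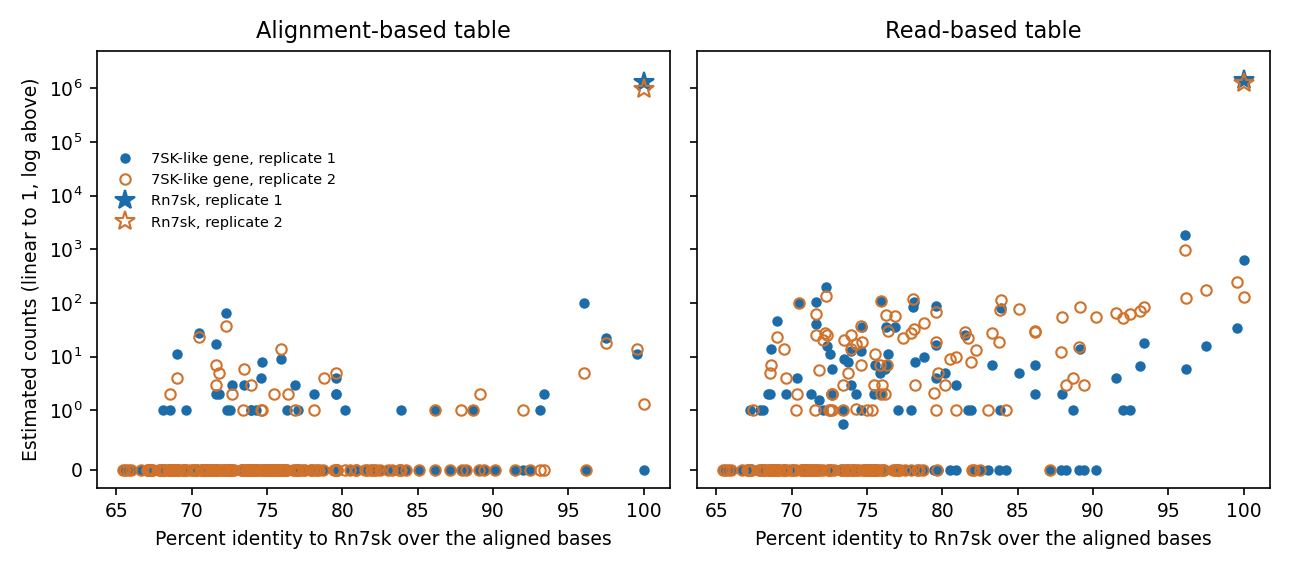
Estimated counts of Rn7sk (stars) and of the 206 genes that resemble it (circles) against percent identity to Rn7sk over the aligned bases, by replicate, in the alignment-based (left) and read-based (right) table, on an axis that is linear to 1 and logarithmic above. The highest relative has 101 counts in the left panel and 1846 in the right, and Rn7sk has 1328471 and 986090 counts in the left panel.

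Set against its partners within a library, Rn7sk exceeded the summed TPM of the 8 protein-coding genes 2140-fold in replicate 1 and 1954-fold in replicate 2 (2047 ± 132). The ratio was 773 and 746 per full length (759 ± 19.6), and 1314 and 1023 in the read-based table (1169 ± 206). The gap was widest against the constitutive partners, with Rn7sk 35207-fold and 30222-fold above Larp7 and Mepce together. It was 21943-fold and 13777-fold above Hexim1 and Hexim2, 5816-fold and 7542-fold above Cdk9, and 5898-fold and 5321-fold above Ccnt1 and Ccnt2. Per full length these ratios were lower, 12632 and 11523 for Larp7 and Mepce, 7822 and 5229 for the Hexim genes, 2261 and 3112 for Cdk9, and 2039 and 1970 for the cyclins. In the read-based table they were 24576 and 17277, 12346 and 7760, 4691 and 5182, and 3837 and 3118 for the same sets. These are ratios of RNA levels and say nothing of the amounts of protein.

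The proteins that stay on 7SK came next. Mepce, the capping enzyme (chr5:137781906-137787655, minus strand), had 6.74 TPM in replicate 1 and 7.70 in replicate 2, on 688 and 622 counts. Of the expressed protein-coding genes, 48.1% lay below it, so it was near their median. Larp7, the La-related protein that shields the 3′ end (chr3:127536714-127553349, minus strand), had 2.26 and 2.42 TPM on 144 and 116 counts, with 13.3% of expressed protein-coding genes below it. Mepce was 2.98 times and 3.18 times Larp7 in TPM in replicates 1 and 2, so the libraries gave nearly the same ratio of these 2 partners. The read-based table put it at 3.05 and 3.64.

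The inhibitors were unequal. Hexim1 (chr11:103116231-103119725, plus strand), whose product is the P-TEFb inhibitor first found as a protein induced by a differentiating agent, had 12.6 TPM in replicate 1 and 20.4 in replicate 2, on 1596 and 1858 counts. It is a gene of 1 exon, so unspliced and spliced RNA cannot be told apart. Hexim2 (chr11:103132429-103139876, plus strand), its neighbour and paralog, had 1.85 and 1.78 TPM on only 61 and 36 counts, the fewest of the 9 genes. Hexim1 exceeded Hexim2 6.81-fold and 11.5-fold in TPM. In the read-based table the excess was 1.23-fold and 2.56-fold, with Hexim2 at 3.91 and 4.98 TPM on 229 and 177 counts and Hexim1 at 4.81 and 12.7 TPM. Hexim1 was the higher in both libraries and both tables, but by how much depended on the table.

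The kinase had the highest TPM of the protein-coding genes in the alignment-based table, though not the most counts. Cdk9 (chr2:32705784-32713076, minus strand) had 54.5 TPM in replicate 1 and 40.6 in replicate 2, with deposited credibility bounds of 51.1 to 56.6 and 37.2 to 42.8, on 2542 and 1395 counts. In TPM, 91.8% of expressed protein-coding genes lay below it. Of the cyclins that activate it, Ccnt2 (chr1:127774164-127808061, plus strand) had 38.8 and 35.3 TPM on 5852 and 3995 counts. Ccnt1 (chr15:98538689-98570923, minus strand) had 14.9 and 22.2 TPM on 2189 and 2266 counts. Ccnt2 exceeded Ccnt1 in both libraries, 1.60-fold in replicate 2 and by more in replicate 1, and 2.03-fold and 1.49-fold in the read-based table. The cyclins together were 0.986 times Cdk9 in TPM in replicate 1 and 1.42 times in replicate 2.

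Aff4, the scaffold (chr11:53350833-53421830, plus strand), is the longest of the genes, with 70998 bases and up to 21 exons. It had 16.4 TPM in replicate 1 and 26.2 in replicate 2, although its counts, 4259 and 3767, ran the other way. The deposited effective length of the gene was 6681 and 5178 bases in replicates 1 and 2, and Aff4-201, a transcript of 10099 bases, had 63.1% of its TPM in replicate 1 and 47.5% in replicate 2.

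In order of mean TPM the genes ran Rn7sk, Cdk9, Ccnt2, Aff4, Ccnt1, Hexim1, Mepce, Larp7 and Hexim2. The values of neighbours in this order did not overlap between libraries, except for Aff4 with Ccnt1 and Ccnt1 with Hexim1. Within each library Aff4 was above Ccnt1 and Ccnt1 above Hexim1 in both tables, and the overlap is between values of different libraries. The read-based table had Aff4 above Ccnt2 and above Cdk9 in replicate 2, at 38.1 TPM beside 26.3 and 26.5. It also had Hexim2 above Larp7 in both libraries and above Mepce in replicate 1, at 3.91 TPM beside 3.30. The ranks of Aff4 and Hexim2 thus depended on the table.

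Which transcripts carried these levels differed between the genes, and Ccnt2 stood at one end. Rn7sk and Hexim1 have 1 annotated transcript each. Of the TPM of Ccnt2, only 29.5% in each library was in transcripts annotated as protein-coding, against a median of 73.5% and 78.7% in replicates 1 and 2 over 8606 protein-coding genes with 2 or more transcripts. Among these genes 7.02% and 6.96% had a lower share. By counts, the share of Ccnt2 was 32.6% and 31.9%, against medians of 87.9% and 90.1%. The read-based table gave 30.6% of counts to the coding transcript Ccnt2-202 in replicate 1 and 27.4% in replicate 2, so that the low share stood in both tables.

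The most counts of Ccnt2, 46.6% and 47.1% in replicates 1 and 2, were in Ccnt2-207, a processed transcript of 7640 bases that starts inside the gene, 22407 bases from its first base, and holds no annotated reading frame. Its last exon is the same as that of the coding transcript Ccnt2-201, and much of that exon is in Ccnt2-202 too, so these shares rest on how each tool divides shared reads. The read-based table gave Ccnt2-207 43.7% and 46.8% of counts. Retained-intron transcripts keep an intron and are known to stay in the nucleus in many cases. They took a further 20.9% of counts in replicate 1, with much the same share in replicate 2, and 46.1% and 44.7% of TPM. Over 5914 genes with such transcripts the median was 14.3% and 11.3% of counts and 25.9% and 20.6% of TPM. In nucleoplasmic RNA, reads in an intron may also come from RNA not yet spliced. The 2 sources were not told apart here, for Ccnt2 or for any other gene.

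**Figure D3:**
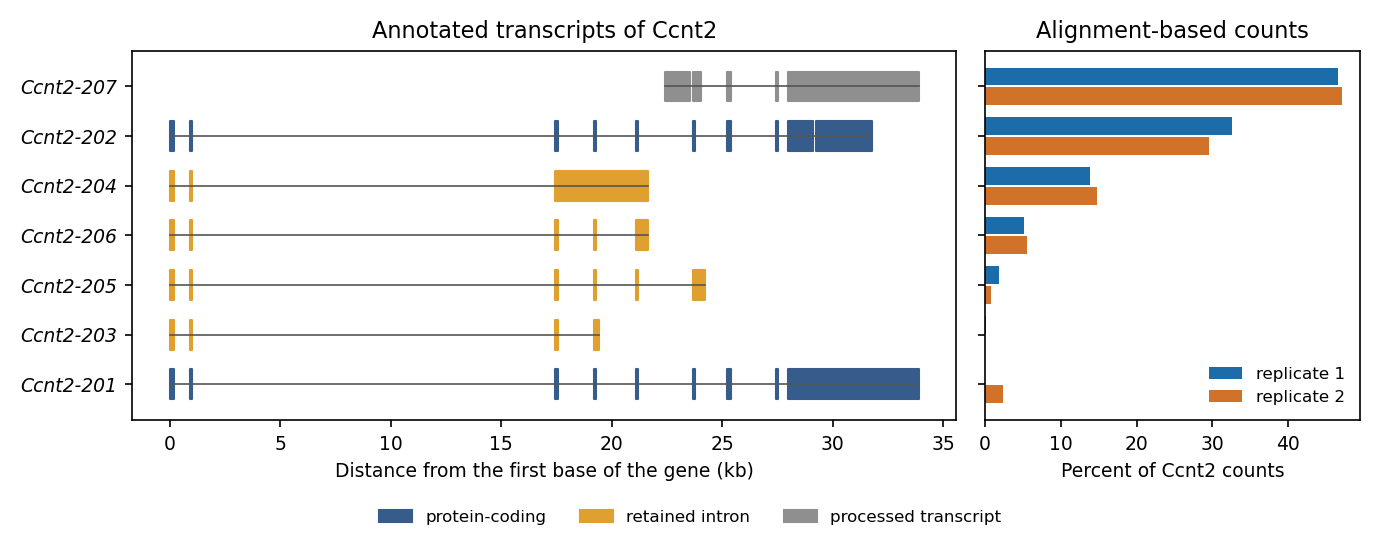
The 7 annotated transcripts of Ccnt2 drawn to scale by distance from the first base of the gene in kb (boxes are exons, coloured by annotation class), with the percent of Ccnt2 counts each holds in replicates 1 and 2. Ccnt2-207 in the 3′ part holds 46.6% and 47.1%, more than the coding Ccnt2-202 with 32.6% and 29.6%.

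For Ccnt1 the scale decided the picture. Its coding transcripts held 86.7% and 86.3% of counts but 45.7% and 44.3% of TPM in replicates 1 and 2. Most of the gap was in Ccnt1-203, a processed transcript of 683 bases, which had 34.3% and 37.3% of TPM on 89.9 and 107 counts. The read-based table gave Ccnt1-203 only 5.43% and 17.6% of TPM, and there the retained-intron transcripts held 63.1% and 45.5%. A part of Ccnt1 also overlaps 9330020H09Rik, an antisense gene with 44.1 and 77.2 counts. They share 695 exonic bases, all within the coding transcript Ccnt1-208 and none within Ccnt1-203. Without a stated strand setting, reads of Ccnt1 and of its antisense partner cannot be told apart in those bases, though the counts of the partner are small beside those of Ccnt1.

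Cdk9 had 65.2% and 68.9% of its TPM in coding transcripts. Of the 9 genes, only Cdk9 and Ccnt1 have transcripts annotated for nonsense-mediated decay, a cytoplasmic pathway that destroys RNAs with an early stop. Those of Cdk9 held 29.0% and 24.5% of its TPM, nearly all in Cdk9-208, but 16.3% and 12.8% of its counts. That of Ccnt1 held 1.21% and 0.72% of TPM. The share over all genes was not computed. In read-based TPM the share of Cdk9-208 was 28.1% and 22.6%. Aff4 had 73.6% and 69.1% of TPM and 93.5% and 91.7% of counts in coding transcripts, above all Aff4-201. In read-based TPM the coding share was 48.8% and 43.0%, with 22.1% and 20.0% in Aff4-201. Larp7 had 70.0% and 80.2% of TPM in coding transcripts, the rest retaining introns, and Mepce had 89.9% and 100%. The 5 transcripts of Hexim2 are all annotated as coding.

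**Figure D4:**
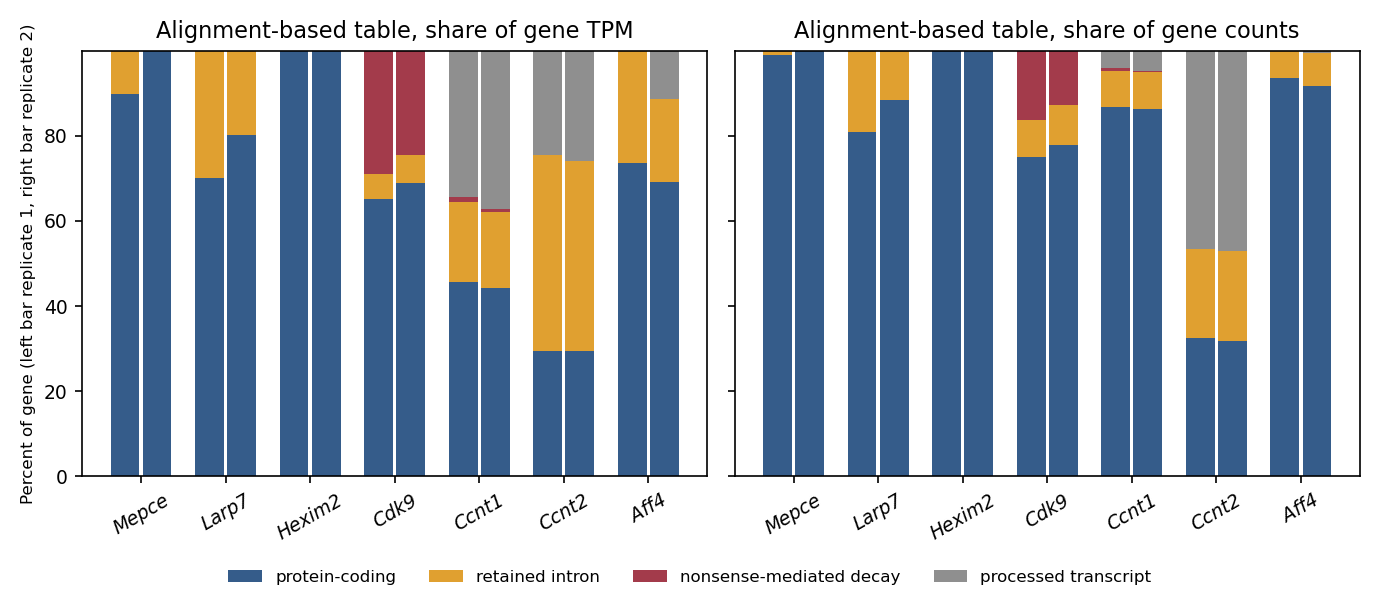
Percent of each gene's TPM (left panel) and counts (right panel) by annotation class of its transcripts, for the 7 genes with 2 or more transcripts, left bar replicate 1 and right bar replicate 2. Ccnt2 has the lowest protein-coding share on both scales, 29.5% of TPM and 32.6% and 31.9% of counts.

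Restricted to coding transcripts, the levels changed order. Cdk9 then had 35.5 TPM in replicate 1 and 27.9 in replicate 2, and Hexim1 kept its 12.6 and 20.4. Aff4 had 12.1 and 18.1 TPM, Ccnt2 11.5 and 10.4, Ccnt1 6.82 and 9.81, and Mepce 6.06 and 7.70. On this scale Ccnt2 lay below Hexim1 in both libraries, whereas over all transcripts it lay above it in both. The same held in the read-based table, with coding Ccnt2 at 4.48 and 6.12 TPM beside Hexim1 at 4.81 and 12.7. There, however, coding Aff4 lay above Hexim1 in both libraries, at 8.69 and 16.4 TPM. Coding Ccnt1, at 2.72 and 6.35 TPM, lay above Ccnt2 in replicate 2 only.

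The leading transcript, the one with most TPM, was the same in both tables and both libraries for 4 of the 7 genes with 2 or more transcripts, namely Mepce-201, Larp7-201, Cdk9-201 and Ccnt2-202. Over 8961 genes this held for 60.1%, so 4 of 7 is near the background. Within replicate 1 alone it was 4 of 7 beside 68% of genes, and within replicate 2 alone 5 of 7 beside 74.4%. In the alignment-based table all 7 leading transcripts were annotated as coding in both libraries, where 14.5% of protein-coding genes in replicate 1 and 14.9% in replicate 2 led with another class. Hexim2 was the clearest case of disagreement. Its leading transcript was Hexim2-204 with 31.0% and 39.9% of TPM in one table, on about 3 counts in each library, and Hexim2-205 with 78.8% and 74.8% in the other. Aff4 was led by Aff4-201 in the alignment-based table, and by Aff4-207 in replicate 1 and Aff4-203 in replicate 2 in the read-based one. Ccnt1 differed in replicate 1 only, with Ccnt1-208 leading in the first table and the retained-intron transcript Ccnt1-202 in the second.

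The libraries were then set against each other gene by gene. Ratios of replicate 1 over replicate 2 were taken on counts scaled by TMM, with a minimum mean count of 100 that leaves out Hexim2 at 48.5. None of the 8 remaining genes differed beyond 2-fold, as did 3.49% of 9675 genes. Cdk9 alone lay beyond 1.5-fold, as did 16.2% of all genes tested, so both counts are near the background. The median absolute log2 ratio over all genes was 0.26, and 1 in 10 exceeded 0.71.

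Cdk9 had 107 CPM after TMM scaling in replicate 1 and 67.3 in replicate 2, a log2 ratio of 0.67 with a 95% counting interval of 0.57 to 0.76. Ccnt2 had a log2 ratio of 0.35 (0.30 to 0.41) and Rn7sk one of 0.23, or 1.17-fold, which its depth fixes closely. Higher in replicate 2 were Hexim1 at -0.42 (-0.51 to -0.32) and Ccnt1 at -0.25 (-0.33 to -0.16). Cdk9 and Hexim1 thus lay apart in opposite directions, and Cdk9 was 4.33 times Hexim1 in TPM in replicate 1 and 1.99 times in replicate 2. The other inhibitor, Hexim2, lay on the side of Cdk9, with a log2 ratio of 0.41 (0.12 to 0.70) in read-based counts. The intervals of Larp7 at 0.11 (-0.25 to 0.48), Mepce at -0.05 (-0.21 to 0.11), Aff4 at -0.02 (-0.08 to 0.04) and Hexim2 at 0.56 (-0.05 to 1.20) held 0. The intervals describe counting error in 2 libraries and not the spread between cultures.

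These ratios depend on the scale. On TPM the median nuclear protein-coding gene itself had a log2 ratio of -0.28, and in read-based TPM of -0.79. In read-based TPM Hexim1 at -1.40 and Aff4 at -1.10 lay beyond 2-fold before that displacement was taken off. Relative to the median gene, Cdk9 was at 0.71 on TPM and 0.58 on read-based TPM, and Hexim1 at -0.42 and -0.61. Ccnt2 was at 0.41 and 0.31, Rn7sk at 0.33 and 0.44, and Ccnt1 at -0.29 and -0.15. Aff4, near 0 in counts, was at -0.40 and -0.30, and Hexim2, below the count minimum, at 0.33 and 0.44. So measured, Cdk9, Ccnt2 and Rn7sk were higher in replicate 1 and Hexim1 and Ccnt1 higher in replicate 2 on counts and on both TPM scales. Hexim2 was higher in replicate 1 as well, though its interval on TMM-scaled counts held 0. Mitochondrial mRNA differed between the libraries, and TMM factors computed without those genes left all 9 log2 ratios within their counting intervals.

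**Figure D5:**
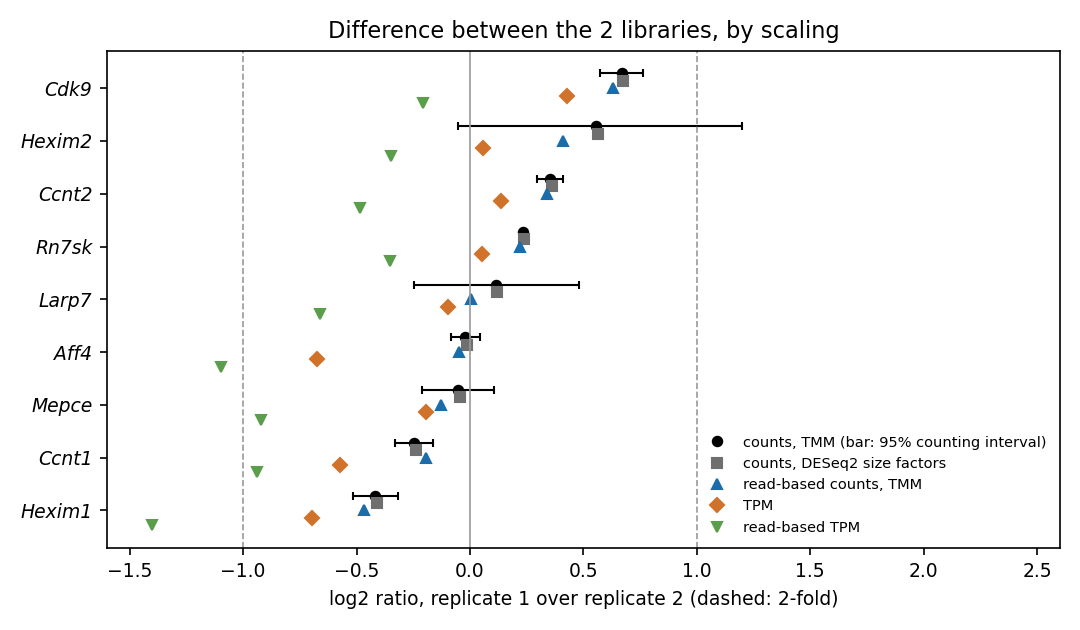
Difference between the libraries for each gene as log2 of replicate 1 over replicate 2, on 5 scales, with the 95% counting interval as a bar on the TMM-scaled counts and dashed lines at 2-fold. On counts all points lie within the dashed lines, with Cdk9 highest at 0.67 and Hexim1 lowest at -0.42, while the read-based TPM points are shifted to the left.

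Other genes of elongation control were expressed as well. Of 54 genes on 7 lists by role, 51 reached 1 TPM in both libraries, against 41.9% of all protein-coding genes, and 22 had 10 or more. The lists were chosen with earlier results of these data known, so that share is not independent of them. None of the 49 above the same count minimum differed beyond 2-fold between the libraries, as did 3.49% of all genes. The 3 below 1 TPM all belong to the super elongation complex, in which 6 of 9 passed. They were Aff3 at 0.030 ± 0.014 TPM, Ell3 and Eaf2, the last 2 named after their values were seen. Aff1, a scaffold related to Aff4, was highest of that list at 35.8 ± 4.30 TPM, against 21.3 ± 6.92 for Aff4. In the read-based table Aff1 had 18.5 and 31.9 TPM and Aff4 had 17.8 and 38.1, so the order turned in replicate 2.

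All 11 genes for recruitment and release of P-TEFb passed. Brd2, a reader of acetylated histones, was highest at 135 ± 16.1 TPM and Brd3, its relative, lowest at 3.52 ± 0.43. Of 5 other 7SK-binding proteins all passed, from Hnrnpr at 10.5 ± 5.67 to Hnrnpa2b1 at 273 ± 5.03 TPM. By mean TPM these RNA-binding proteins, which also package nascent transcripts, all lay above Larp7 and Mepce, although Hnrnpr at 6.48 TPM in replicate 1 was not above Mepce at 6.74.

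The substrates and neighbours of P-TEFb all passed too. Among 8 pausing factors and substrates, Polr2a, the largest subunit of RNA polymerase II, had 25.1 ± 4.78 TPM and Nelfa, of the negative elongation factor, 5.19 ± 0.67. Among 6 other genes for kinases of the polymerase tail and their cyclins, Cdk12 had 33.1 ± 6.90 TPM and Mnat1 2.81 ± 0.54. Cdk9 exceeded both kinase-list extremes in each library. In the PAF complex, which travels with the elongating polymerase, the 6 genes ran from Leo1 at 4.23 ± 0.94 to Paf1 at 29.4 ± 9.45 TPM. The 9 genes for transcription of Rn7sk by RNA polymerase III ran from Snapc2 at 1.27 ± 0.36 to Snapc3 at 17.9 ± 2.47 TPM, both subunits of the factor that binds the promoter of small nuclear RNA genes.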

How the data were processed

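Ribosome-depleted nucleoplasmic RNA of mouse macrophages was sequenced in 2 libraries of 1 group. Per the file headers, all deposited tables use mm10 and GENCODE M21. For aligner, quantification tools, strand setting and trimming, nothing is stated in the labels or headers. The deposited values include expected counts, in which ambiguous reads are shared out. Also deposited were TPM and FPKM, both per effective length. The authors' tables further hold, per transcript, its percent of gene TPM, recomputed here, and credibility bounds, with posterior means, as a score of estimation error. FPKM served as an alternative threshold.

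Expected counts were rounded, leaving out rows for tRNA, spike-ins and phage. Read-based transcripts were summed to genes. Ratios used TMM factors of edgeR 4.0.16 (0.997 and 1.00), a prior count of 0.5 and exact Clopper-Pearson intervals at 95%. On simulated counts, drawn with counting error alone (Poisson) and known library sizes, the intervals were checked to hold the ratio that was put in. Such counts have no other spread, so the check tests the calculation and not how well the intervals describe these libraries. Relatives of Rn7sk were found with blastn 2.17.0 on the GENCODE transcripts, with an e-value of 1e-05 or less. As alternatives, size factors of DESeq2 1.42.0, library size, factors without mitochondrial genes, other filters, prior counts and units, read-based values and single libraries were tried. The software was R 4.3.3 and Python 3.11.15, with matplotlib 3.10.9, scipy 1.17.1, pandas 2.3.3 and numpy 2.4.6. The 9 genes, the 7 lists and the markers were chosen with earlier results of these data known. Named genes were the 9, the highest and the lowest gene of each list by mean TPM, and any list gene beyond 2-fold between libraries. Ell3, Eaf2 and the relatives of Rn7sk named were added outside that rule. Gene identifiers follow the tables, and protein sequences were not used here.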

Additional observations from a re-analysis of the deposited data

How the results depend on the processing

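The level of Rn7sk, 311353 TPM, was 122494 in the read-based table, 245519 per full length and 301009 as posterior mean TPM, and 305846 to 316861 in single libraries. Its ratio to the summed protein-coding genes, 2047, was 1169 in the read-based table, 759 per full length and 1954 to 2140 in single libraries. The cause of these shifts was not tested. At a gene TPM of 10 or more, where only 4 genes are left, the leading transcript was the same for 2 in place of 4, and in single libraries for 4 to 5. Of the context genes, 22 passed at 10 TPM in place of 51. All 9 genes passed 1 TPM in the read-based table and by FPKM, and 6 passed 10 TPM. That all 9 passed in each library alone follows from their passing in both. The count of 0 genes beyond 2-fold held under the 7 count-based alternatives, but not in read-based TPM, where Hexim1 and Aff4 lay beyond it. Levels of the 8 protein-coding genes moved beyond the spread between libraries for 6 in the read-based table and for 3 as posterior mean. All 8 moved when TPM was rescaled to nuclear protein-coding genes. That rescaling takes all other genes, Rn7sk among them, out of the total. It multiplies every gene of a library by the same factor, so the count of 8 says nothing of single genes. The log2 ratios moved beyond their counting intervals for 6 of 9 on TPM. Under DESeq2 size factors, library size or read-based counts, that of Rn7sk alone did, at 0.240, 0.224 and 0.219 beside 0.233. Those shifts are small, and they pass an interval as narrow as 0.229 to 0.236. No paired analysis was possible because both libraries belong to 1 group. With 2 libraries the spread is poorly known, and Hexim2 and Larp7 rest on few counts.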

Other observations

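Small RNA genes lie inside 3 of the protein-coding genes. An intron of Larp7 holds, on the opposite strand, the precursors Mir302b, Mir302c, Mir302a, Mir302d and Mir367, a cluster known from pluripotent cells. All 5 had 0 counts in both libraries, and the read-based table gave none of them more than 2. Mir2861 and Mir3960 lie in exons of Cdk9 on the same strand and had 0 counts in both tables and both libraries. Aff4 holds Mir6920 and the small nuclear RNA gene Gm25930, each at 0 counts in both libraries, with read-based counts of 10 and 7 and of 5 and 11 in replicates 1 and 2. These genes are short, and the size range of 250 to 400 is stated without a unit, so gene lengths were not set against it. A count of 0 is not read as absence.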
